A study of Mus musculus with 8 samples.

Results

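An enzymatically dead mutant of PRMT1, put into double-knockout haematopoietic stem and progenitor cells (HSPCs) of the mouse, was compared with the empty vector in the same kind of cell. Libraries were chosen by their labels: 2 of dKO cells with the dead mutant (dKO_MUT) and 2 of dKO cells with the empty vector (dKO_EV), 4 of the 8 libraries in the series. The description covers the 12743 expressed genes other than Prmt1, out of 24421 listed. All 4 libraries carry the double knockout, which the labels write as dKO without naming its genes. The series title names beta-catenin (Ctnnb1) and Hoxa9. The comparison is thus of inserts within 1 genotype. Of the other groups, 2 libraries of dKO cells with wild-type PRMT1 (dKO_PRMT1) served to test whether the inserts differ, and levels in 2 libraries of wild-type cells with the empty vector (WT_EV) are given beside them. The cells came from mice after a primary transplant. Not given in the sources used here were the promoter that drives the insert, its species, the substitution in the dead mutant, the number of recipients and any sort for donor cells.

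PRMT1 is the enzyme that makes most asymmetric dimethylarginine in mammalian cells, using S-adenosylmethionine, on histone H4 and on many RNA-binding and DNA repair proteins. A catalytically dead form can still bind its partners, including other copies of PRMT1, since the enzyme works as a dimer, and so it is used to tell the methylation reaction apart from the presence of the protein. Progenitors of the marrow give rise to granulocytes, whose granules fill in a fixed order from azurophil to secondary and tertiary. They also give rise to monocytes and macrophages, which handle lipid, digest cargo in lysosomes and secrete chemokines, and all of these cells answer interferon with a shared set of antiviral genes.

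The count totals were between 15531344 and 22329749 in the 4 libraries, both extremes being dKO_EV. Prmt1 transcripts, read as counts scaled to library size (CPM), stood at 190 and 194 CPM in dKO_EV and at 1744 and 1758 CPM in dKO_MUT, against 981 and 976 CPM in dKO_PRMT1. Both libraries labelled with the mutant thus held more Prmt1 reads than those with the wild-type insert. Gene counts do not show which form of the transcript was read, and an insert from another species would be counted only in part. For dKO_MUT replicate 2 the label of the genotype reads PRMT2, not PRMT1. Prmt2 itself was at 5.66 and 6.18 CPM with the empty vector, against 3.45 and 3.96 CPM with the mutant (log2 difference -0.68 ± 0.27, adjusted p = 0.11). Ctnnb1 was at 391 and 379 CPM in dKO_EV, 360 and 368 CPM in dKO_MUT and, in WT_EV, 444 and 455 CPM. Its count covers the whole gene and so does not check a deletion of part of it. Hoxa9, at 18.2 and 17.2 CPM in WT_EV, stood at 5.79 and 3.63 CPM in dKO_EV and 4.85 and 1.95 CPM in dKO_MUT (-0.43 ± 0.35, adjusted p = 0.51). Progenitor transcripts were present, with Kit at 157 and 139 CPM in dKO_EV and 164 and 154 CPM in dKO_MUT, beside granulocyte transcripts such as Mpo at 6136 and 6207 CPM in dKO_EV. The WT_EV libraries hold Xist and no Ddx3y while all dKO libraries hold Ddx3y and no Xist, so sex and genotype cannot be told apart wherever WT_EV levels are given. No label ties the replicates to different animals or cultures, so the p-values reflect the spread between libraries only, which may be technical.

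Cells with the dead mutant held less RNA of interferon-stimulated genes, of MHC class I, of chemokines and of macrophage lipid, lysosome and matrix genes, and more RNA of neutrophil granule proteins. The falls were more numerous and larger than the rises. At an adjusted p under 0.05, 902 of 12743 genes were lower (7.08%) and 539 higher (4.23%), 1441 in all (11.3%). A gene is said to have risen or fallen only where it passed that threshold in the same direction with all 8 libraries and again in each of the 8 fits that left out 1 library. By that rule 453 genes fell (3.55%) and 168 rose (1.32%), together 621 (4.87%), at median log2 fold changes of -0.65 and 0.31. Counts of list members that fell or rose are to be read beside these shares. A change of at least 2-fold was reached by 110 of the genes that fell and 4 of those that rose, while the median over all genes was 0.00. Because these are bulk samples, fewer cells of a type and less RNA per cell cannot be told apart in any of these results.

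**Figure D1:**
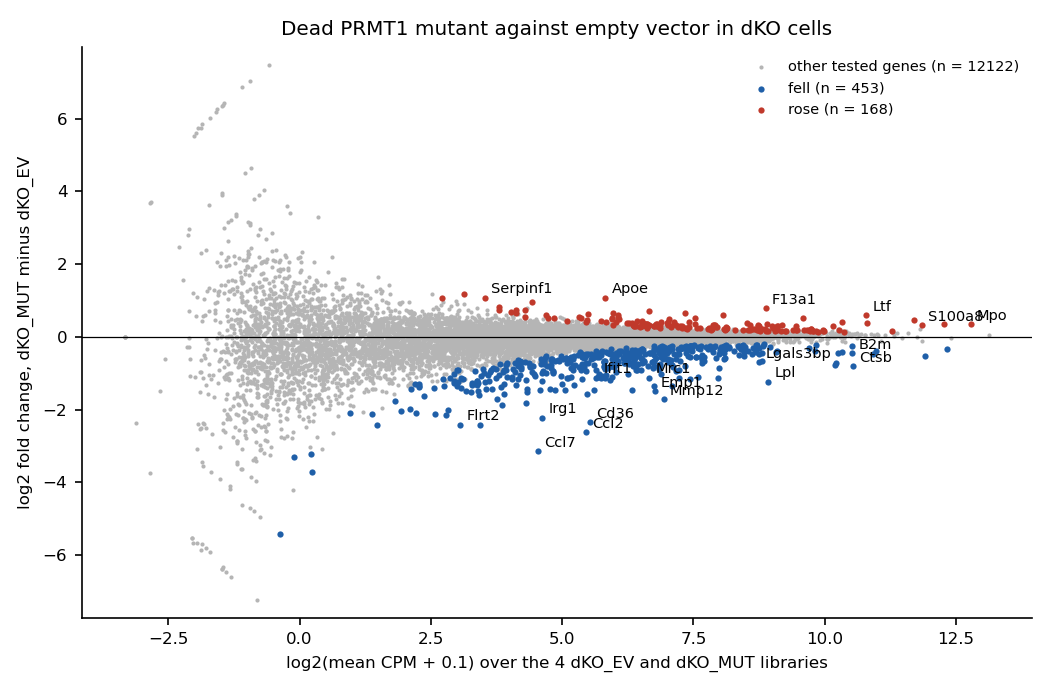
Each point is a gene, placed by its mean level over the 4 dKO_EV and dKO_MUT libraries (x axis, log2 CPM) and its log2 fold change, dKO_MUT minus dKO_EV (y axis). Blue marks the 453 genes that fell, red the 168 that rose and grey the remaining tested genes. Ccl7, Ccl2, Cd36 and Mmp12 lie far below 0, while the abundant granule genes Mpo, S100a8 and Ltf lie a short way above it.

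Interferon-stimulated genes were lower at several steps of the pathway. Interferon receptors signal through JAK kinases to a complex of STAT proteins and IRF9, which binds the interferon-stimulated response element before antiviral genes, and the induced IRF7 then amplifies the response. Among 18 tested genes of receptors, JAK-STAT relay and IRF factors, 5 fell and 1 rose, at a median of -0.16. Irf7, the amplifying factor (chr7:141263183-141266424, GRCm38), stood at 337 and 349 CPM in dKO_EV and 150 and 163 CPM in dKO_MUT, a log2 fold change of -1.13 ± 0.05 (adjusted p = 4.9e-19). Both libraries with the mutant lay at under 0.5 times either empty vector library. Usp18, an induced brake on the type I receptor, went from 74.2 and 71.7 CPM to 34.7 and 31.4 CPM (-1.14 ± 0.09, adjusted p = 1.5e-12). Irf9 (-0.43 ± 0.08) and Irf5 (-0.50 ± 0.06) fell by less. Irf8, an interferon regulatory factor that also directs monocyte and dendritic fate, went the other way. It was at 108 and 108 CPM in dKO_EV and at 153 and 153 CPM in dKO_MUT, a rise of 0.50 ± 0.06 (adjusted p = 1.3e-08). The receptor chain gene Ifngr1 differed by only 0.06 ± 0.04 (adjusted p = 0.48).

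Of the sensors of viral RNA and cytosolic DNA and their adaptors, 6 of 14 fell, at a median of -0.29. These were the RNA helicases Ddx58 (RIG-I, -0.66 ± 0.06), Dhx58 (-0.72 ± 0.08) and Ifih1 (MDA5, -0.72 ± 0.08), the DNA-binding Ifi204 (-0.76 ± 0.06), the Z-nucleic acid sensor Zbp1 (-0.70 ± 0.08) and the ubiquitin ligase Trim25. The falls were of similar size. Ifi204 belongs to a family of near-identical genes, so its counts are less certain.

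Antiviral effectors fell for 36 of the 45 tested, beside 3.55% of all genes, at a median of -0.63, and the share that fell was the highest of the 46 lists. Oas3, which makes the 2-5A signal that activates RNase L, stood at 247 and 262 CPM in dKO_EV and at 153 CPM in both dKO_MUT libraries (-0.73 ± 0.05, adjusted p = 6.7e-14). Ifit1, which binds foreign RNA caps, went from 71.9 and 67.6 CPM to 31.6 and 32.8 CPM (-1.11 ± 0.09, adjusted p = 4.4e-12). Isg15, the ubiquitin-like modifier, went from 76.1 and 76.5 CPM to 35.4 and 38.4 CPM (-1.05 ± 0.08, adjusted p = 4.7e-12), and in each of the 3 genes the groups were far apart compared with the gap between replicates. The lectin-binding glycoprotein gene Lgals3bp had the smallest p of the list (517 and 546 against 318 and 342 CPM, -0.69 ± 0.04, adjusted p = 3.2e-15). The RNA-activated kinase Eif2ak2 (PKR, -0.40 ± 0.06), the dynamin-like Mx1 (-0.58 ± 0.12), the membrane tether Bst2 (-0.68 ± 0.06) and the entry inhibitor Ifitm3 (-0.47 ± 0.04) also fell. Ifitm1, next to Ifitm3 in the genome, was at 416 and 418 CPM in dKO_EV and 424 and 415 CPM in dKO_MUT (0.01 ± 0.04, adjusted p = 0.93). Reads may be shared within the Oas1, Slfn and Ifi families, whose members are close copies.

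Promoters of 4 effectors that fell are shown because they hold the response element core that the interferon factors read. Each line gives the 150 bases before the RefSeq start site of the gene in GRCm38.p6, 5′ to 3′ along the gene. Capitals mark GAAANNGAAA on either strand, where N is any base.
Oas3, chr5:120777660-120777809 (minus strand): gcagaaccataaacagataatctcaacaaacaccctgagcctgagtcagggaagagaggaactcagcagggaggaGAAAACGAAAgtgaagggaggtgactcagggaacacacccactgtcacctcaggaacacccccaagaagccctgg
Ifit1, chr19:34640739-34640888 (plus strand): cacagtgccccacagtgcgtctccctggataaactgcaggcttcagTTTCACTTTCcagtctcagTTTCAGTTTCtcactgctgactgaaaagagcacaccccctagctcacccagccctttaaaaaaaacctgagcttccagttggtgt
Isg15, chr4:156200819-156200968 (minus strand): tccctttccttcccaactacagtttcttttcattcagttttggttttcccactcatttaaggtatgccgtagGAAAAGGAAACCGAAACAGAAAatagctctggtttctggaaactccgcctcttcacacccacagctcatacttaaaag
Oas1a, chr5:120907526-120907675 (minus strand): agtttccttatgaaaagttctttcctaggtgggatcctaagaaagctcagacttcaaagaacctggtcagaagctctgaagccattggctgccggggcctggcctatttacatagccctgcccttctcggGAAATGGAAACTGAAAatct
Oas3 holds 1 match, 75 bases before the start, and Ifit1 holds 2, the nearer one 85 bases before it. Isg15 holds 3 and Oas1a holds 2, overlapping within each gene, and the nearest in Oas1a lies 14 bases before the start. In windows of 300 bases, from 250 before to 50 after the start, the core was in 16 of 37 windows of the effectors that fell (43.2%), which belong to 31 of the 36 genes. It was in 12% of the windows of all genes that fell, in 4% of those that rose, in 3.17% of those of all genes tested and in 3.44% of all 32851 windows. These matches are letters in a window, not measured binding. Effectors that did not fall were not counted as a set, so the share does not tell those that fell from other effectors.

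MHC class I, which displays peptides of the cell's own proteins to T cells, also fell. Of 17 tested genes of class I chains, peptide loading and the immunoproteasome, 9 fell, at a median of -0.30. H2-K1, a classical heavy chain, was at 1403 and 1420 CPM in dKO_EV and at 1028 and 1032 CPM in dKO_MUT (-0.45 ± 0.03, adjusted p = 2.9e-13). B2m, the light chain, went from 1681 and 1692 to 1265 and 1219 CPM (-0.44 ± 0.03, adjusted p = 4.4e-13), and the peptide transporter Tap1 from 246 and 251 to 171 and 167 CPM (-0.55 ± 0.05, adjusted p = 5.9e-11). Heavy chain, light chain and transporter all fell, and for each the groups lay far apart beside the gap between replicates. H2-Q6, H2-Q7 and H2-T22 were at 0 in all 4 libraries. H2-Q4, which fell (-0.73 ± 0.07), is a close copy of its neighbours, so reads may have been placed among them unevenly. MHC class II, shown by dendritic cells, macrophages and B cells, moved less, at a median of -0.17. All 11 tested genes of that list, which includes Ctss, were lower, from -0.83 to -0.09. At an adjusted p under 0.05, 4 of the 11 were called lower, beside 7.08% of all genes, and only 1 fell. The summed level was 2939 to 3142 CPM in dKO_EV and 2584 to 2587 CPM in dKO_MUT. The protease Ctss, which trims the invariant chain, fell (-0.40 ± 0.03), and H2-Aa (-0.11 ± 0.05, adjusted p = 0.13) and Ciita (-0.18 ± 0.10, adjusted p = 0.30), the class II transactivator, did not pass the threshold.

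Chemokine genes had the lowest median of the 46 lists, -1.46, and 8 of the 15 tested fell. Only 10 of the 15 had a mean of at least 5 CPM, so the median rests in part on genes with few counts. Summed over the list, the level was 732 to 755 CPM in dKO_EV and 424 to 428 CPM in dKO_MUT. Ccl7, a monocyte attractant (chr11:82045712-82047523, GRCm38), stood at 41.4 and 41.9 CPM in dKO_EV and at 4.19 and 5.37 CPM in dKO_MUT (-3.13 ± 0.13, adjusted p = 1.1e-19). Its neighbour Ccl2, the main ligand of the monocyte receptor Ccr2, went from 79.1 and 71.3 to 10.1 and 14.6 CPM (-2.61 ± 0.11, adjusted p = 1.1e-19). In WT_EV the levels were higher than in either dKO group, at 86.4 and 83.6 CPM for Ccl7 and 129 and 137 CPM for Ccl2. Ccl4 (-2.15 ± 0.22) and Ccl5 (-2.12 ± 0.33), attractants of monocytes and T cells, fell by similar amounts. Ccl9 (-0.57 ± 0.04) and Ccl6 (-0.52 ± 0.05) fell by much less, and these 4 genes lie together on chromosome 11 between positions 83525779 and 83664683 (GRCm38). At an adjusted p under 0.05, 6 of 26 inflammatory cytokine and NF-kB feedback genes were called lower, beside 7.08% of all genes, and 0 higher. Their median was -0.24. Irg1 (Acod1), which makes the antimicrobial metabolite itaconate, was the only one to fall, from 38.4 and 42.5 to 8.48 and 8.95 CPM (-2.22 ± 0.13). Over all genes, 3.55% fell. With the filter at 5 CPM, 3 genes of that list fell.

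Macrophage genes fell with them, though the list did not move as one. Of 28 tested monocyte and macrophage markers 12 fell and 3 rose, at a median of -0.51. The mannose receptor Mrc1 was at 130 and 147 CPM in dKO_EV and at 65.3 and 62.4 CPM in dKO_MUT (-1.12 ± 0.07, adjusted p = 2.5e-15). Maf, a transcription factor of mature macrophages, went from 57.2 and 50.1 to 20.7 and 21.8 CPM (-1.33 ± 0.10). The beta-glucan receptor Clec7a (-0.86 ± 0.05), the complement chain C1qb (-1.15 ± 0.09) and the M-CSF receptor Csf1r (-0.41 ± 0.04) fell too. In the other direction F13a1, a coagulation factor chain of monocytes, went from 349 and 341 to 608 and 583 CPM (0.79 ± 0.04, adjusted p = 1.7e-17), and Fn1 (fibronectin, 0.66 ± 0.06) and Gpr141 (0.32 ± 0.05) also rose. Ly6c2, a marker of classical monocytes, stood at 1253 and 998 CPM in dKO_EV and 1368 and 1271 CPM in dKO_MUT (0.23 ± 0.13, adjusted p = 0.41). Summed over the list, the level was 6359 to 6608 CPM in dKO_EV and 6193 to 6425 CPM in dKO_MUT, so the ranges overlap, and Marco was at 0 in all 4 libraries. The part of these markers in the changes of chemokine, interferon, lipid and lysosome genes was not tested.

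Genes by which macrophages take up and store lipid fell for 9 of 19 tested, at a median of -0.54, and rose for 2. The scavenger receptor Cd36 (chr5:17781690-17888959, GRCm38) stood at 74.8 and 79.5 CPM in dKO_EV and at 13.8 and 16.6 CPM in dKO_MUT (-2.35 ± 0.10, adjusted p = 7.1e-20). Lipoprotein lipase (Lpl) went from 640 and 723 to 287 and 296 CPM (-1.23 ± 0.04, adjusted p = 1.0e-21), and Gpnmb, a glycoprotein of lipid-laden macrophages, from 1439 and 1528 to 877 and 867 CPM (-0.77 ± 0.03). The lipid droplet coat Plin2 (-0.53 ± 0.04) and the cholesterol exporter Abcg1 (-0.80 ± 0.07) fell. Apoe, which carries cholesterol out of the cell, doubled instead, from 31.8 and 40.5 to 72.7 and 81.3 CPM (1.08 ± 0.11, adjusted p = 1.5e-09), and the HDL receptor Scarb1 rose slightly (0.26 ± 0.05). In WT_EV, Cd36 was at 153 and 159 CPM, Lpl at 1212 and 1271 CPM and Apoe at 35.1 and 29.1 CPM.

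Lysosomal genes fell for 11 of 36, at a median of -0.16, and the falls were in part of the list. The cysteine protease Ctsb stood at 1814 and 1948 CPM in dKO_EV and at 1061 and 1100 CPM in dKO_MUT (-0.80 ± 0.03, adjusted p = 1.4e-19). The asparagine endopeptidase Lgmn went from 236 and 240 to 107 and 108 CPM (-1.15 ± 0.05), and Psap, the precursor of the saposins, from 4442 and 4599 to 3168 and 3149 CPM (-0.52 ± 0.03). Proteases (Ctsl, -0.85 ± 0.06; Ctsd, -0.42 ± 0.03) and the proton pump subunit Atp6v0d2 (-1.45 ± 0.13) were lower as well. Of 22 haem and iron genes 5 fell, beside 3.55% of all genes, and 0 rose, but the median of the list was -0.03. Among those that fell were the ferritin chains Fth1 (2183 and 2304 against 1597 and 1632 CPM, -0.47 ± 0.03) and Ftl1 (-0.34 ± 0.03), the haem oxygenase Hmox1 (-0.46 ± 0.08) and the phagosomal metal transporter Slc11a1 (-0.50 ± 0.09).

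**Figure D2:**
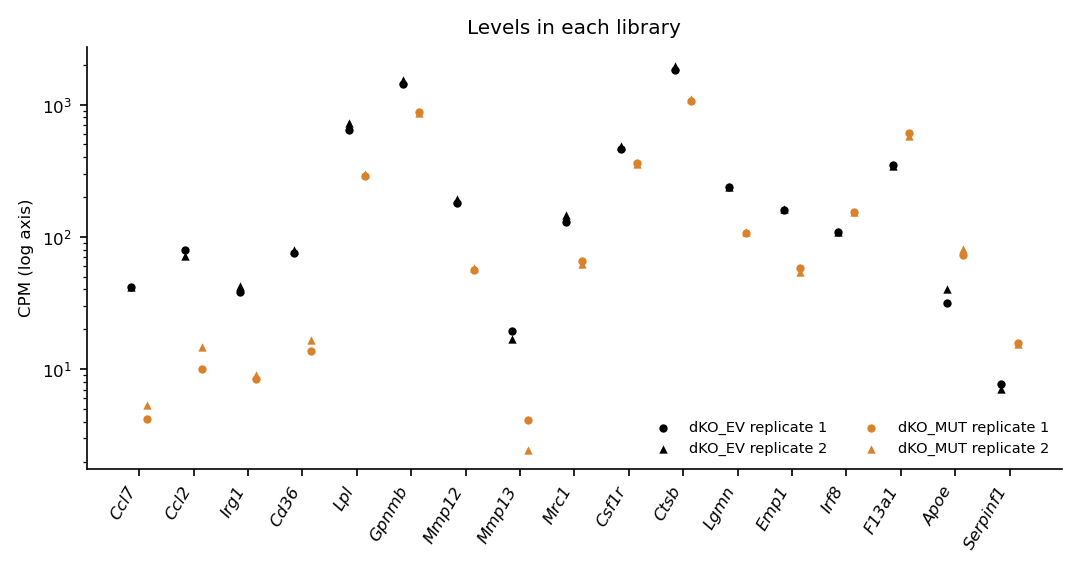
CPM on a log axis for 17 genes in the 2 dKO_EV libraries (black) and the 2 dKO_MUT libraries (orange), with circles for replicate 1 and triangles for replicate 2. For each gene the points of 1 group lie together and apart from those of the other, from the fall of Ccl7 (41.4 and 41.9 to 4.19 and 5.37 CPM) to the rise of Serpinf1 (7.7 and 7.03 to 15.7 and 15.4 CPM).

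Among matrix proteins, metalloproteinases and their inhibitors, 9 of 23 fell and 2 rose, at a median of -0.37. Mmp12, the macrophage elastase (chr9:7347374-7360461, GRCm38), stood at 180 and 194 CPM in dKO_EV and at 56.1 and 57.9 CPM in dKO_MUT (-1.71 ± 0.06, adjusted p = 1.0e-21). The collagenase Mmp13 went from 19.3 and 16.9 to 4.15 and 2.44 CPM (-2.43 ± 0.19), and the urokinase Plau from 49.8 and 43.6 to 21.3 and 21.1 CPM (-1.14 ± 0.10). The neutrophil collagenase Mmp8 and fibronectin were the pair that rose. With DESeq2 5 of the matrix genes fell. AP-1 and immediate early genes fell for 8 of 27 and rose for 1. AP-1 is a dimer of Jun and Fos proteins, and Jun (94.9 and 87.2 against 58.7 and 52.6 CPM, -0.71 ± 0.08) and Jund (149 and 142 against 85.7 and 88.1 CPM, -0.74 ± 0.06) fell. Fosl2, a Fos family partner, was at 49.4 and 56.1 CPM in dKO_EV and 87.5 and 72.6 CPM in dKO_MUT (0.60 ± 0.09), and Atf3 (-1.01 ± 0.09) and Egr2 (-1.52 ± 0.21) fell.

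The promoters of Mmp12 and Mmp13 are shown as the matrix genes that fell and hold an AP-1 motif, TGANTCA, a search chosen after the values were seen. They are printed as above, with the motif in capitals.
Mmp12, chr9:7347224-7347373 (plus strand): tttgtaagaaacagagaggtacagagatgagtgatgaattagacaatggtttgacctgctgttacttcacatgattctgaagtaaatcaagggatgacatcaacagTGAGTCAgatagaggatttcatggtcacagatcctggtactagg
Mmp13, chr9:7272364-7272513 (plus strand): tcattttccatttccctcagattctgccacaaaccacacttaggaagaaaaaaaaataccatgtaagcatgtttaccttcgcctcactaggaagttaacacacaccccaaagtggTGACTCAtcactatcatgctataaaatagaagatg
Each holds 1 match, 44 bases before the start in Mmp12 and 35 in Mmp13. The motif was in 2 of 9 windows of matrix genes that fell (22.2%) and in 12.9% of the windows of all genes that fell. It was in 2.86% of the windows of genes that rose, in 5.40% of those of all genes tested and in 7.81% of all windows. Windows of other sets that fell held it at 21.6% (antiviral effectors), 20.0% (lysosome and lipid), 33.3% (chemokines, 3 windows) and 0% (MHC class I, sensors). The response element core was likewise in 2 of the 9 matrix windows, and so was the C/EBP-like motif TTGCNNAA.

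**Figure D3:**
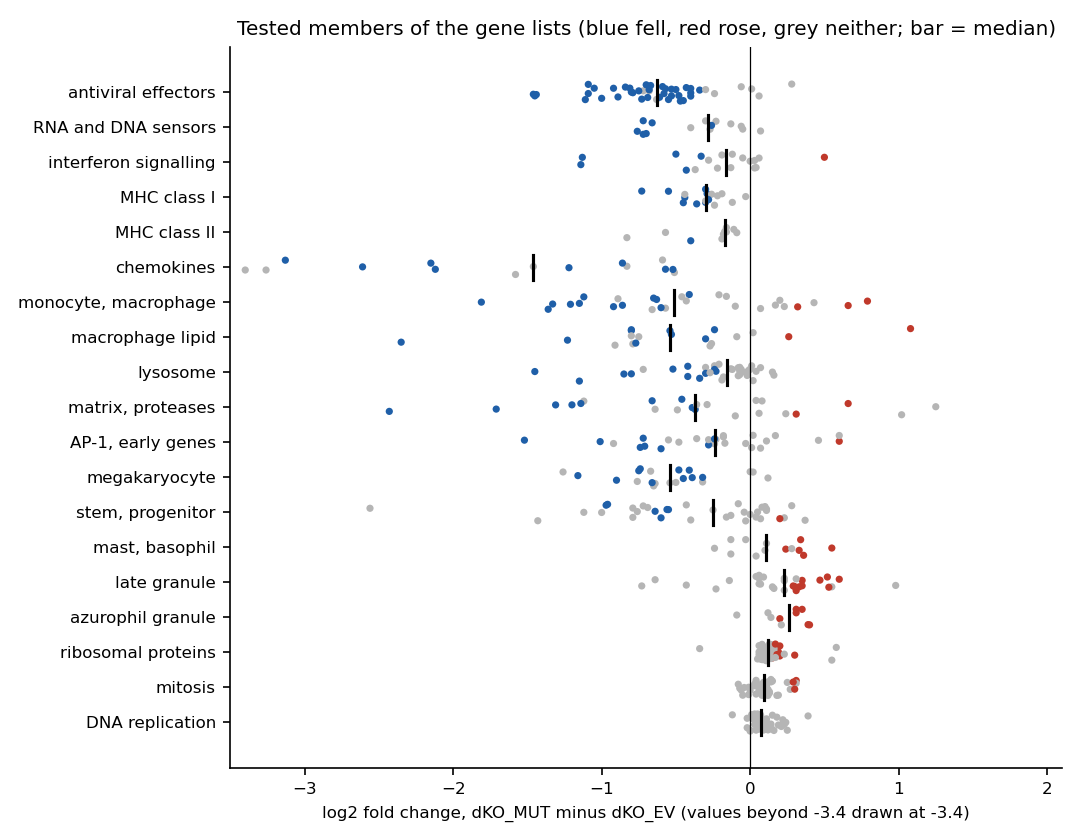
Log2 fold changes, dKO_MUT minus dKO_EV, of the tested members of 19 gene lists, 1 point per gene, with the list median as a black bar. Blue points fell, red points rose and grey points did neither. Antiviral effectors (median -0.63) and chemokines (-1.46) lie mostly below 0, azurophil granule genes (0.26) lie mostly above it, and DNA replication genes (0.07) cluster close to it.

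Granule genes of the neutrophil lineage rose. Azurophil granules are filled first, at the promyelocyte stage, and 6 of 10 tested genes of that stage rose, against 1.32% of all genes, at a median of 0.26. Mpo, which makes hypochlorous acid (chr11:87793784-87804412, GRCm38), stood at 6136 and 6207 CPM in dKO_EV and at 7734 and 8030 CPM in dKO_MUT (0.35 ± 0.03, adjusted p = 1.4e-12). The serine proteases Elane (1529 and 1584 against 1966 and 2102 CPM, 0.39 ± 0.03), Prtn3 (1117 and 1106 against 1432 and 1500 CPM, 0.40 ± 0.03) and Ctsg (0.31 ± 0.04) rose by like amounts. Of 29 tested genes of secondary and tertiary granules and late neutrophils 10 rose, at a median of 0.23. Lactoferrin (Ltf, chr9:111019292-111042766, GRCm38), which binds iron, had 1373 and 1422 CPM in dKO_EV and 2112 and 2137 CPM in dKO_MUT (0.60 ± 0.03, adjusted p = 5.6e-17), and neutrophilic granule protein (Ngp) 2697 and 2890 against 3807 and 3938 CPM (0.47 ± 0.03). The cathelicidin Camp (0.52 ± 0.04), the calprotectin chains S100a8 (0.33 ± 0.03) and S100a9 (0.35 ± 0.03) and Olfm4 (0.53 ± 0.09) rose as well. Members of that list called lower were the protease Asprv1 (10.2 and 13.3 against 7.18 and 7.11 CPM, -0.73 ± 0.23, adjusted p = 0.038) and the formyl peptide receptor Fpr1 (-0.43 ± 0.14, adjusted p = 0.033), neither by the stricter rule. The chemokine receptor Cxcr2, by which neutrophils leave the marrow, was at 75.7 and 70.1 against 61.0 and 63.2 CPM (-0.23 ± 0.09, adjusted p = 0.091) and the gelatinase Mmp9 at 229 and 197 against 226 and 211 CPM (0.04 ± 0.06, adjusted p = 0.76). In WT_EV, Ltf was at 704 and 718 CPM and Camp at 291 and 308 CPM, below every dKO_EV and dKO_MUT library.

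Promoters of Ltf and Ngp are shown because granule genes are known targets of C/EBP factors, which direct granulocyte maturation. They are printed as above, with capitals for the C/EBP-like TTGCNNAA on either strand.
Ltf, chr9:111019142-111019291 (plus strand): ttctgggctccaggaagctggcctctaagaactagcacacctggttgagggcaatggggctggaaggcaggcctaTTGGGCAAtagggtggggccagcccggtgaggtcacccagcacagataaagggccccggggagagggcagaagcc
Ngp, chr9:110419658-110419807 (plus strand): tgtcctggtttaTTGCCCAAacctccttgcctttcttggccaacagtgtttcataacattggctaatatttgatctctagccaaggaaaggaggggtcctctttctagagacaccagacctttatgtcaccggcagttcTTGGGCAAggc
Ltf holds 1 match, 75 bases before the start, and Ngp holds 2, the nearer one 11 bases before it. The motif was in 6 of 14 windows of granule genes that rose (42.9%), from 14 of the 16 genes, in 9.14% of the windows of all genes that rose, in 9.83% of those of genes that fell, in 8.75% of those of all genes tested and in 10.8% of all windows. Granule genes that did not rise were not counted as a set, so the share does not tell those that rose from other granule genes. The stricter rule was not met by Cebpa, Cebpb, Cebpd or Cebpe. Cebpe was at 101 and 98.7 CPM in dKO_EV and 111 and 113 CPM in dKO_MUT (0.16 ± 0.06, adjusted p = 0.087), Cebpa differed by 0.12 ± 0.05 (adjusted p = 0.15) and Cebpb by -0.07 ± 0.07 (adjusted p = 0.58). Cebpd was called higher (81.3 and 65.5 against 83.5 and 93.2 CPM, 0.27 ± 0.08, adjusted p = 0.029).

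**Figure D4:**
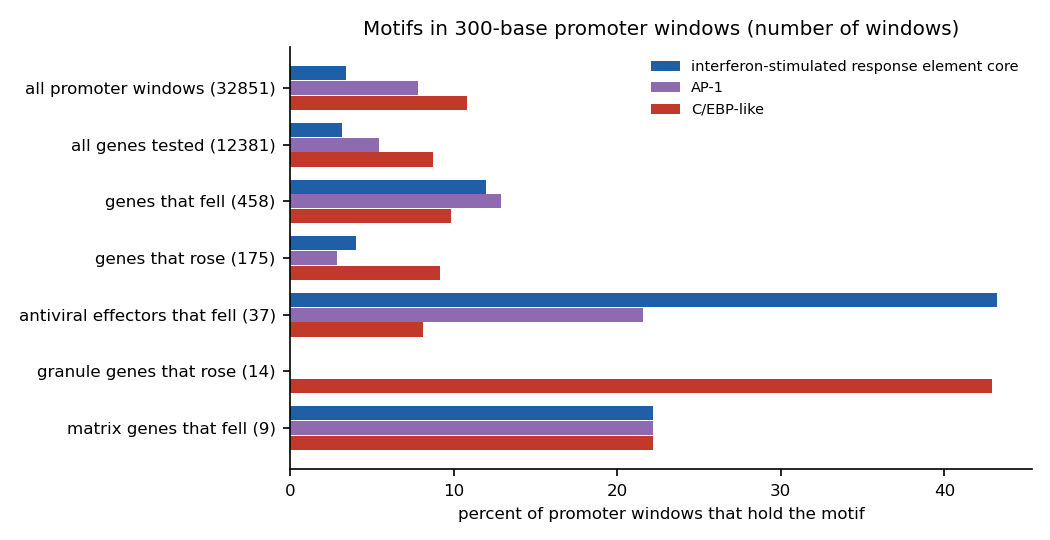
Percent of 300-base promoter windows that hold the interferon-stimulated response element core (blue), the AP-1 motif (purple) or the C/EBP-like motif (red), for all windows and for sets of genes, with the number of windows in brackets. The response element core is in 43.2% of windows of antiviral effectors that fell and 3.44% of all windows, and the C/EBP-like motif in 42.9% of windows of granule genes that rose and 10.8% of all windows. Effectors that did not fall and granule genes that did not rise were not counted as sets.

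Markers of other blood lineages moved in different directions. Of 13 tested mast cell and basophil markers 5 rose, at a median of 0.11: the basophil proteases Prss34 (53.5 and 54.4 against 82.4 and 75.5 CPM, 0.55 ± 0.08) and Mcpt8 (0.33 ± 0.05), the carboxypeptidase Cpa3 (0.24 ± 0.05), the histamine enzyme Hdc (0.36 ± 0.07) and the receptor Il6ra (0.34 ± 0.07). The summed level of that list was 1826 to 1855 CPM in dKO_EV and 2000 to 2041 CPM in dKO_MUT, and the mast cell genes Mcpt4, Tpsab1 and Mrgprb2 were at 0 in all 4 libraries. Epx, the eosinophil peroxidase, fell from 106 and 102 to 62.6 and 56.5 CPM (-0.80 ± 0.07), the only 1 of 10 eosinophil markers to do so. The median of that list was 0.30, while its summed level, most of it Epx and Prg2, was 279 to 290 CPM in dKO_EV and 176 to 204 CPM in dKO_MUT. Megakaryocyte and platelet markers fell for 10 of 21, at a median of -0.54, with Pf4 (platelet factor 4) at 115 and 122 against 67.1 and 59.9 CPM (-0.90 ± 0.07) and the integrin chain Itga2b at 149 and 146 against 104 and 111 CPM (-0.45 ± 0.06). Their summed level went from 2553 to 2587 CPM in dKO_EV down to 1907 to 1911 CPM in dKO_MUT. Of 15 erythroid markers 3 fell (Car2, Gfi1b and Tal1, the last pair shared with megakaryocyte and stem cell programmes), their summed level was 539 to 547 CPM in dKO_EV and 461 to 476 CPM in dKO_MUT, and the globin genes Hba-a1, Hba-a2, Hbb-bs and Hbb-bt were at 0. Of the T and NK cell markers 6 of 14 listed were expressed enough to test. Nkg7, at 75.7 and 79.9 CPM in dKO_EV and 87.7 and 92.8 CPM in dKO_MUT, was called higher and made up most of the summed level of 81.5 to 83.8 CPM and 90.6 to 95.1 CPM. The other 5 were near or under 2 CPM, the median of the 6 was -1.37, and 3 were lower at an unadjusted p under 0.05. Of 12 B and plasma cell markers 4 could be tested, with summed levels of 9.18 to 9.86 CPM and 11.4 to 11.9 CPM, and Cd3e, Cd3g, Pax5 and Ebf1 were at 0 in all 4 libraries. The ribosomal protein gene Rpl26 was also at 0 in all 4 libraries. A count of 0, here or for other genes named at 0, thus does not show that a transcript or cell type was absent. The part of these lineages in the other changes was not tested.

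Stem and early progenitor genes fell for 6 of 35 and rose for 1, at a median of -0.25. Ly6a (Sca-1), the surface antigen used to sort mouse stem cells and itself induced by interferon, went from 239 and 255 to 154 and 165 CPM (-0.64 ± 0.05). Angpt1 (-0.56 ± 0.07), Hlf (-0.97 ± 0.17), Mycn (-0.96 ± 0.16) and Eng (-0.55 ± 0.10) fell, and Myb, a factor of cycling progenitors, rose slightly (264 and 248 against 297 and 289 CPM, 0.20 ± 0.04). Kit, the stem cell factor receptor, did not pass (0.11 ± 0.06, adjusted p = 0.26). Among 30 myeloid fate transcription factors 3 rose, Irf8, Runx2 (0.53 ± 0.09) and Myb, and 5 fell, among them Egr2, Bhlhe40 (-0.45 ± 0.08), Gfi1b (-0.80 ± 0.15) and Tal1 (-0.39 ± 0.08), and Spi1 (PU.1) was at 351 and 404 against 367 and 372 CPM (-0.03 ± 0.05, adjusted p = 0.72). The cytokine-induced STAT5 inhibitor Cish went from 68.5 and 66.8 to 41.3 and 45.1 CPM (-0.65 ± 0.09). Of the leukocyte integrin and selectin list, the collagen receptor Itga1 (0.67 ± 0.08) rose and the fibronectin receptor chain Itga5 (-0.51 ± 0.07) fell.

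The series title concerns DNA replication, and replication genes moved little with the dead mutant. By edgeR's quasi-likelihood test, 3 of 53 origin licensing and fork genes passed an adjusted p under 0.05, all higher, and 0 rose by the stricter rule. Over all genes, 4.23% were called higher and 1.32% rose, and the lists below are to be read beside the same shares. At an unadjusted p under 0.05, 9 were higher and 0 lower, beside 10.6% and 13% of all genes. DESeq2 called 4 higher, beside 3.75% of all genes, and limma voom 3, beside 4.51%. The log2 differences of the list ran from -0.12 to 0.39, with a median of 0.07. Its summed level was somewhat higher with the mutant, 5930 to 6035 CPM against 5650 to 5651 CPM in dKO_EV. In dKO_PRMT1 that level was 6003 to 6077 CPM, and in WT_EV 6073 to 6147 CPM. Of 42 recombination, checkpoint and Fanconi genes 1 was called higher, beside 4.23% of all genes, the differences running from -0.25 to 0.40. Mitosis genes had a median of 0.09 and 3 of 51 rose, Mki67 (483 and 500 against 617 and 602 CPM, 0.31 ± 0.05), Birc5 (0.29 ± 0.07) and Nuf2 (0.30 ± 0.07), but by the same rule 0 rose with DESeq2. Cytosolic ribosomal proteins showed a small shift in 1 direction, with a median of 0.12. Of 50 tested, 30 were called higher, beside 4.23% of all genes, and 7 rose by the stricter rule, beside 1.32%. Rpsa stood at 2275 and 2406 against 2605 and 2656 CPM (0.17 ± 0.03). Among arginine methyltransferases other than Prmt1, their cofactors and readers, 0 of 17 were called by edgeR, DESeq2 or limma voom, and 2 were higher and 2 lower at an unadjusted p under 0.05. Ccnd1, a G1 cyclin and Wnt target, fell from 90.9 and 94.4 to 59.2 and 65.9 CPM (-0.57 ± 0.07). In arginine metabolism the cationic amino acid transporter Slc7a2 fell from 31.9 and 27.7 to 11.2 and 9.6 CPM (-1.51 ± 0.18), and arginase (Arg1) from 1.72 and 1.34 to 0.28 and 0 CPM.

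Across the 46 lists, 1061 different genes were tested, of which 155 fell and 47 rose. A further 298 genes that fell and 121 that rose were in no list. Among the largest falls outside the lists were Flrt2, an adhesion protein (11.4 and 16.3 against 1.63 and 3.69 CPM, -2.41 ± 0.25), the small GTPase Rhoc (-2.02 ± 0.25) and Myl10 (20.4 and 24.9 against 5.45 and 6.94 CPM, -1.88 ± 0.19). Dab2, an endocytic adaptor in no list, fell by less (123 and 114 against 44.6 and 41.2 CPM, -1.47 ± 0.07). Among the largest rises were Myo18b, an unconventional myosin (1.18 ± 0.21), Serpinf1, the secreted factor PEDF (1.08 ± 0.18), the inhibitory receptor Btla (0.74 ± 0.14) and Chil1, a chitinase-like protein of granulocytes (79.3 and 74.9 against 126 and 124 CPM, 0.70 ± 0.07).

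Direct comparison with wild-type PRMT1 tested whether the inserts differed. The empty vector libraries cancel out of the fold change but still enter the shared estimate of the spread. At an adjusted p under 0.05, 213 genes were higher in dKO_MUT than in dKO_PRMT1 (1.67%) and 182 lower (1.43%), 395 in all (3.10%). By the stricter rule 71 were higher (0.557%) and 53 lower (0.416%), together 124 (0.973%). For single genes, a difference between inserts is stated only for these. Counts of list members that were higher or lower between inserts are by the stricter rule, to be read beside its shares, unless said to be called. Of the 621 genes that changed with the dead mutant against the empty vector, 488 did not pass the threshold between inserts. That does not show that the inserts acted alike on them. Against the empty vector, wild-type PRMT1 also gave lower Irf7 (-1.36 ± 0.05), Ccl7 (-2.29 ± 0.12), Cd36 (-1.71 ± 0.09) and Lpl (-1.21 ± 0.04). Mpo was higher with it (0.56 ± 0.03). Prss34 was lower with it (-0.78 ± 0.08), opposite to the dead mutant, and Epx (-0.11 ± 0.07) and Cish (-0.07 ± 0.09) did not pass. These genes were picked from those named, and that comparison is not described further. In dKO_MUT, 16 genes were higher than in both other dKO groups and 20 lower than in both. A further 7 were above the empty vector and below wild-type PRMT1, and 16 below the empty vector and above wild-type PRMT1. The Prmt1 transcript itself was higher with the mutant (1744 and 1758 against 981 and 976 CPM), and the part of insert level in these differences was not tested.

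Granule genes differed between inserts in opposite directions by stage. Of the 10 azurophil genes 6 were lower with the dead mutant than with wild-type PRMT1, among them Prtn3 (1432 and 1500 against 1861 and 1872 CPM, -0.35 ± 0.03, adjusted p = 1.8e-09), Elane (-0.31 ± 0.03), Mpo (-0.20 ± 0.03) and the ficolin Fcnb (125 and 114 against 195 and 183 CPM, -0.66 ± 0.06). With the dead mutant these 4 genes lay between the other dKO groups. Of the 29 later genes 13 were higher with the dead mutant, among them Ltf (2112 and 2137 against 1622 and 1602 CPM, 0.40 ± 0.03, adjusted p = 2.6e-11), Mmp8 (0.50 ± 0.04) and Olfm4 (71.8 and 74.8 against 40.4 and 42.7 CPM, 0.82 ± 0.09). Of the 13, Lcn2, Mmp9, Retnlg, Cxcr2, Asprv1, Fpr1 and Fpr2 had not risen or fallen against the empty vector. Retnlg was at 69.4 and 73.8 CPM in dKO_EV, 83.5 and 84.5 in dKO_MUT and 21.8 and 22 in dKO_PRMT1 (1.94 ± 0.10 between inserts), Mmp9 differed by 1.47 ± 0.07, Asprv1 by 1.45 ± 0.26, Fpr1 by 1.27 ± 0.15, Cxcr2 by 1.22 ± 0.09, Fpr2 by 0.95 ± 0.11 and Lcn2 by 0.23 ± 0.04. Gfi1, a repressor needed for granulocyte maturation, was at 89.0 and 86.9 CPM with the mutant and 130 and 138 CPM with wild-type PRMT1 (-0.60 ± 0.07).

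Of the mast cell and basophil genes, several stood above both other dKO groups. Prss34 (chr17:25298394-25300161, GRCm38) was at 82.4 and 75.5 CPM in dKO_MUT, 53.5 and 54.4 in dKO_EV and 29.7 and 33.0 in dKO_PRMT1 (1.33 ± 0.08 between inserts, adjusted p = 7.9e-15). Mcpt8 (0.87 ± 0.06), Cpa3 (0.93 ± 0.05) and Hdc (0.43 ± 0.07) were also higher than with wild-type PRMT1, as were 8 of 13 markers in all. The list's summed level was 2000 to 2041 CPM with the mutant and 1670 to 1677 CPM with wild-type PRMT1. MHC class II genes differed the other way, with Ciita at 36.5 and 32.4 against 55.9 and 56.7 CPM (-0.71 ± 0.10) and H2-Ab1 at 243 and 230 against 315 and 309 CPM (-0.40 ± 0.05), 5 of 11 genes in all. Class I was higher with the mutant than with wild-type PRMT1 for 3 of 17 genes, H2-K1 (1028 and 1032 against 868 and 845 CPM, 0.27 ± 0.03), H2-D1 (0.35 ± 0.04) and B2m (0.20 ± 0.03).

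**Figure D5:**
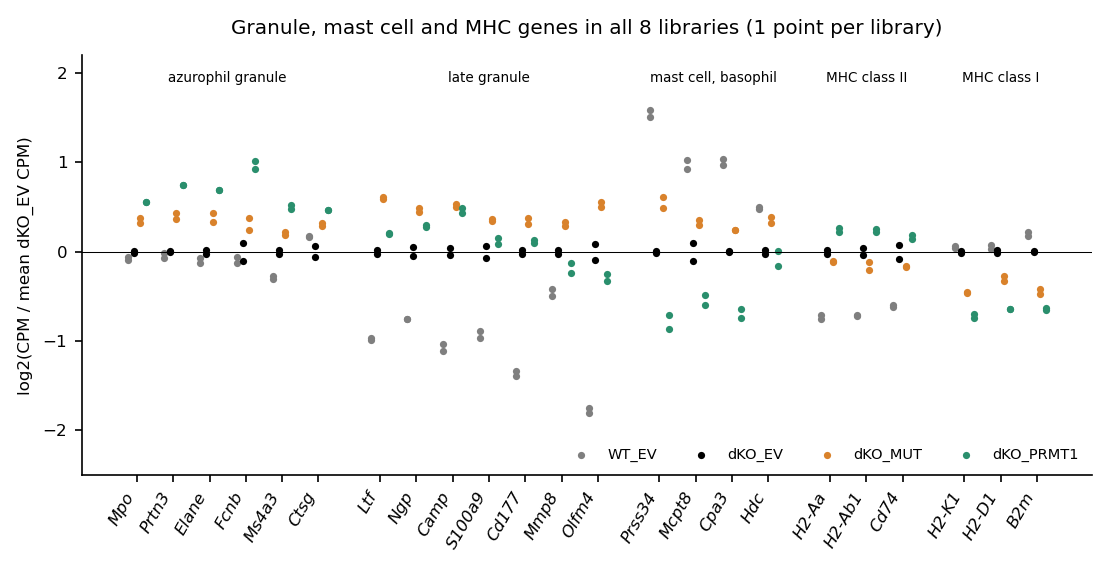
Level of each gene in each of the 8 libraries as log2 of CPM over the mean dKO_EV CPM, with WT_EV in grey, dKO_EV in black, dKO_MUT in orange and dKO_PRMT1 in green. Azurophil genes of dKO_MUT lie between dKO_EV and dKO_PRMT1, late granule genes such as Ltf and Olfm4 and the mast cell and basophil genes lie above both, and MHC class I genes lie between the 2 again.

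Of 45 interferon effectors 9 were called higher with the mutant than with wild-type PRMT1, beside 1.67% of all genes, at a median difference of 0.08. By the stricter rule 3 were higher, beside 0.557% of all genes, Rsad2 (36.3 and 43.2 CPM with the mutant against 25.5 and 20.6 CPM with wild-type PRMT1, 0.78 ± 0.10), Ifit3 (0.65 ± 0.08) and Slfn1 (0.37 ± 0.07). Oas1a differed by 0.08 ± 0.06 (adjusted p = 0.65) and Oasl2 by 0.08 ± 0.05 (adjusted p = 0.59). Of 28 monocyte and macrophage markers 8 were called lower with the mutant than with wild-type PRMT1, beside 1.43% of all genes, and 3 higher, beside 1.67%. By the stricter rule Mrc1 was lower, at 65.3 and 62.4 against 115 and 110 CPM (-0.82 ± 0.07, adjusted p = 7.4e-11), and Mpeg1, a pore-forming protein of macrophages, was higher, at 1248 and 1231 against 1069 and 1072 CPM (0.21 ± 0.03). Lower genes from elsewhere were Mmp12 of the matrix list at 56.1 and 57.9 against 92.5 and 89.3 CPM (-0.67 ± 0.06), Dab2, in no list, at 44.6 and 41.2 against 74.2 and 66.3 CPM (-0.71 ± 0.07) and the chemokine Ccl2 at 10.1 and 14.6 against 21.2 and 20.6 CPM (-0.77 ± 0.12). The lipid gene Cd36 was lower with the mutant by the stricter rule, at 13.8 and 16.6 against 25.8 and 21.5 CPM (-0.64 ± 0.11). Of 36 lysosomal genes Ctsd alone differed by that rule, being higher with the mutant. The lipid gene Lpl and the lysosomal Ctsb did not pass, with Lpl differing by -0.02 ± 0.04 (adjusted p = 0.92) and Ctsb by -0.02 ± 0.03 (adjusted p = 0.86). Apoe was higher with the mutant (72.7 and 81.3 against 51.9 and 43.9 CPM, 0.68 ± 0.10). The cation channel Trpm2 was also higher with the mutant (1.05 ± 0.11), and the lipase Lipg (-0.96 ± 0.10) and the peroxidase Epx (-0.69 ± 0.07) were lower.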

How the data were processed

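RNA of 8 mouse HSPC libraries was measured in 4 groups of 2. Per the labels' protocols, RNA was isolated on RNeasy Plus Micro columns and sequenced from strand-specific Ultra II Directional libraries (New England BioLabs). The submitters' processing notes name Trim Galore 0.6.6, STAR 2.7.6a, featureCounts and GRCm38 (mm10). The sources used here give neither the annotation nor the strand setting, so overlapping and antisense genes cannot be told apart. The authors deposited raw counts per gene, with no normalization.

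Counts were tested in R 4.3.3 with edgeR 4.0.16 (filterByExpr, TMM, robust quasi-likelihood, group as the only term) over all 8 libraries, and p-values were Benjamini-Hochberg adjusted over 12744 genes, Prmt1 included. Errors after ± are standard errors of log2 fold changes, with n = 2 libraries per group. The common biological coefficient of variation was 0.0637, and replicates differed by more than counting noise (chi-square per degree of freedom 3.63 to 6.39). A gene was described as risen or fallen if called with all libraries and in each of 8 fits leaving out 1 library; where that left 1 library in a group, it was assumed to vary like the others. That rule was run on simulated data for dKO_MUT against dKO_EV over 12744 genes, with noise drawn from the spread fitted to these data. In them 50 genes were changed at each fold, all with a mean of at least 5 CPM, and the groups were otherwise alike. The rule recovered 12% of genes changed 1.25-fold, 56% at 1.5-fold, 100% at 2-fold and 98% at 4-fold, and 1 of its 134 calls was false. These rates of recovery do not cover genes with lower levels.

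The members, the 46 gene lists and the tests were chosen with earlier results of these data known. Named genes were up to 4 changed members per list and direction by smallest p, the 12 largest rises and falls with a mean level of at least 5 CPM and an established symbol, the 8 genes per direction with the smallest p that also differed from wild-type PRMT1, and Hoxa9, Ctnnb1 and Prmt2. Some were left out for room or are not reported here, and genes named beyond these, such as Retnlg, Cebpe and Ifitm1, were chosen after their values were seen. Lists were described by counts and medians, with no set test. Promoter windows came from a RefSeq table (GRCm38.p6) matched by symbol. Replicate numbers did not pair the samples: deviations of same-numbered dKO_EV and dKO_MUT libraries had a correlation of 0.0203. Alternatives were DESeq2 size factors, DESeq2 1.42.0, limma 3.58.1 voom, other count filters, a fit restricted to the 2 groups being compared, a replicate block and each library left out.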

Additional observations from a re-analysis of the deposited data

How the results depend on the processing

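With only the 2 compared groups in the fit, 77 genes rose in place of 168. The numbers of genes that fell with the dead mutant, and that differed between inserts by the stricter rule, stayed within 1.5 times under every alternative run. Leaving out 1 library gave 323 to 594 genes higher and 649 to 857 lower than the empty vector at an adjusted p under 0.05, and 101 to 309 higher and 69 to 241 lower than wild-type PRMT1. Against the empty vector the number higher moved by over 1.5 times without dKO_MUT replicate 2 (323). Against wild-type PRMT1 the number higher did so without dKO_MUT replicate 2 (134) or dKO_PRMT1 replicate 1 (101) or 2 (112), and the number lower without dKO_MUT replicate 1 (101) or 2 (105) or dKO_PRMT1 replicate 1 (69) or 2 (92). These fits have fewer samples. With the replicate block, 113 genes rose and 403 fell against the empty vector, 56 were higher and 43 lower than wild-type PRMT1, and mitosis genes that rose went from 3 to 0. Of the named genes, Hoxa9 alone crossed the threshold against the empty vector, without dKO_MUT replicate 1 (-1.24, adjusted p = 0.0427). For their differences between inserts, a call was gained in 29 and lost in 72 of the fits run, counted over genes and alternatives. Among list counts, 134 of 1380 at an adjusted p under 0.05 and 46 of 644 by the stricter rule moved by over 1.5 times, such as ribosomal proteins that rose, 7 by edgeR, 12 by limma voom and 1 with the compared groups alone. The cause was not tested. Levels near 1 CPM rest on few counts, and changes under 1.5-fold were recovered only in part in simulated data, so a gene that did not pass may still differ.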

Other observations

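Genes of osteoclast formation and macrophage fusion, a set chosen after its values were seen, were in part lower with the dead mutant. Of 16 genes 14 were tested and 8 fell, beside 3.55% of all genes, at a median log2 fold change of -0.53. Because of that choice the count and median describe the set and test nothing. Atp6v0d2, Itgb3 and Car2, which fell, are also in the lists above. Dcstamp, a membrane protein required for fusion, had 18 and 60 counts in dKO_EV and 2 and 6 in dKO_MUT, and its partner Ocstamp had 15 and 38 against 1 and 0. Tnfrsf11a (RANK), the receptor of the osteoclast cytokine, stood at 19.3 and 17.9 CPM in dKO_EV and 7.88 and 10 CPM in dKO_MUT (-1.06 ± 0.16, adjusted p = 9.2e-06 by edgeR's quasi-likelihood test). The pump and channel of the resorbing membrane, Tcirg1 (-0.30 ± 0.05) and Clcn7 (-0.38 ± 0.07), fell by less. The resorption enzymes did not pass, with Acp5 at 7.70 and 7.70 against 9.55 and 9.71 CPM (0.32 ± 0.21, adjusted p = 0.37) and Ctsk at 3.56 and 7.21 against 3.22 and 3.42 CPM, and Nfatc1, the master factor of the lineage, differed by -0.12 ± 0.08 (adjusted p = 0.37).

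Immunity-related and guanylate-binding GTPases, which attack vacuoles that hold microbes, were chosen in the same way. Of 15 tested genes 9 fell, beside 3.55% of all genes, at a median of -0.77, and these values too test nothing. Gbp2, which fell, is also among the antiviral effectors. Gbp6 went from 24.1 and 20.1 to 6.20 and 8.63 CPM (-1.58 ± 0.17), Iigp1 from 20.7 and 20.0 to 8.20 and 7.43 CPM (-1.38 ± 0.18) and Irgm1 from 129 and 129 to 84.3 and 76.2 CPM (-0.68 ± 0.06). The Gbp genes are close copies of each other, so reads may be shared among them.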
